A study of Homo sapiens with 6 samples.

Results

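FDFT1 encodes squalene synthase, the enzyme that commits farnesyl pyrophosphate to sterol synthesis, and its transcript was low in A549 cells that carried a CRISPRi guide aimed at another gene. FDFT1 was selected on that low level, so its own values are a description without a test. The other 38 genes were chosen by their known roles around it: 8 genes of steps before FDFT1, 10 genes of steps after it, 5 genes of sterol sensing, 4 of sterol transport, 3 targets of the liver X receptors (LXR) and 8 genes of fatty acid metabolism. These 39 genes are 39 of the 26485 gene symbols counted, and all 39 passed the filter on low counts. The question asked of them was whether sterol synthesis and sterol feedback genes differed where FDFT1 was low.

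The cells were A549, a line from a human lung adenocarcinoma, and stably expressed dCas9-KRAB (a Cas9 that does not cut, fused to a repressor domain) and rat Nkx2-1, both brought in by lentivirus, the first selected with puromycin and the second sorted by GFP. They were transiently transfected either with the synthetic sgRNA #2, aimed at intron 1 of SFTPB (the surfactant protein B gene), or with a non-targeted sgRNA control, with 3 libraries of total RNA per group. Both groups carried the same transgenes, so in all 6 libraries Nkx2-1 was the rat protein, driven by a vector promoter, in a line that does not express its own NKX2-1. The reads counted on genes were 6341459, 7068999 and 7584611 with the sgRNA control and 7058274, 6598372 and 6047554 with sgRNA #2. Levels are given as CPM (counts scaled to library size, here after TMM scaling), and differences as the log2 fold change of sgRNA #2 over the sgRNA control from edgeR's quasi-likelihood test, with its standard error (SE) and an adjusted p over all 13356 genes tested.

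Cholesterol is built from acetyl-CoA through mevalonate and the isoprenoid farnesyl pyrophosphate, from which branches lead to sterols, ubiquinone, dolichol and prenylated proteins. Squalene synthase stands at the branch point to sterols. When sterols in the membrane of the endoplasmic reticulum run low, SCAP carries the SREBP transcription factors to the Golgi for cleavage, and the released fragments raise genes of sterol synthesis and uptake, while INSIG proteins hold the complex back when sterols are plentiful. In alveolar cells the same lipid pathways also serve the surfactant.

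The guide and a predicted site in a sterol gene are shown first. The target of sgRNA #2 with its NGG motif, on the minus strand of hg38 at chr2:85668529-85668551, is printed with the 10 bases next to the motif and the motif itself in capitals, and had 1 exact site in the genome.
sgRNA #2 target: gggatgggagGGGAACACCCAGG
A site in the study's list of predicted off-target sites lay inside a gene of the sterol pathway, in intron 8 of LSS (of 22 exons), at chr21:46215390-46215412 on the minus strand, 13373 bp from the start of the gene's canonical transcript. Capitals mark the bases before the NGG motif that differ from the target, which are G1T, A4G, A14G and C16A, counted from 1 at the 5′ end of the target. The N of the motif, which also differs, is left in lower case.
LSS intron site: TggGtgggaggggGaAaccctgg
LSS makes lanosterol, the first sterol of the pathway, and its log2 fold change was -0.03 (SE 0.134, adjusted p = 0.960 by edgeR).

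Whether the study's list also holds predicted sites in FDFT1 or SQLE is not reported here. LSS is therefore not given as the only member with a predicted site. Shorter matches were counted around annotated starts. The 10 bases next to the NGG motif occurred with an NGG at 266 places in the genome. Within 1000 bp of a start, FDFT1 was the 1 member of 39 with such a match, 37 bp from a start, against 28 of 13073 tested genes with an annotated start (0.214%). With 8 bases, FDFT1 and FDPS (at -991 bp) had a match, against 1.51% of these genes, and with 11 bases no member had one. A match is a description of letters, and binding of dCas9-KRAB was not measured here.

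The A549 label was checked against markers. KRT8, an epithelial keratin, had 9261 to 14564 counts per library, and the A549-typical enzymes AKR1B10 and ALDH1A1 had 1580 ± 64.9 and 2739 ± 56.4 CPM with the sgRNA control (SD, n = 3). KRT19, another epithelial keratin, had only 0 to 4 counts and did not pass the filter, and EPCAM had 44 to 76 counts. Markers of leukocytes and endothelium did not pass the filter, and PTPRC, CD3E and CDH5 were at 0 in all 6 libraries. Of 4 fibroblast markers COL1A1 alone passed the filter, with 36 to 58 counts. Of the 8 epithelial and A549 markers tested, 1 passed the test, CDH1 (E-cadherin), which was lower with sgRNA #2 (log2 fold change -0.34, SE 0.0669, edgeR adjusted p = 0.00728), where 2.22% of all tested genes were lower. DESeq2 called 2 of the 8, CDH1 and ALDH3A1, an aldehyde dehydrogenase, both lower, where it called 1.86% of all tested genes lower. In a fit with the replicate number as a block, 3 were lower, CDH1, ALDH3A1 (log2 fold change -0.33, edgeR adjusted p = 6.44e-12) and KRT8 (-0.13, 0.0235), and 1 was higher, AKR1B10 (0.13, 0.0297), where the same fit called 6.06% of all tested genes lower and 3.97% higher. Without the block and with 1 library left out, the log2 fold change of ALDH3A1 lay between -0.44 and -0.22. That of KRT8 lay between -0.23 and -0.01, and that of AKR1B10 between 0.09 and 0.19. The part of these markers in the results below was not tested.

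The libraries carried a structure that touched the sterol and fatty acid genes. A library tended to deviate from its group mean in the same genes as the like-numbered library of the other group, with correlations across genes of 0.269, 0.287 and 0.291 for numbers 1, 2 and 3, so for each gene described here a fit with the replicate number as a block is given where it changed the call. Of the 18 synthesis genes other than FDFT1, 13 (72.2%) were lowest in replicate 2 of both groups, against 16.1% of all tested genes. The 8 fatty acid genes had the same profile in 6 (75.0%). For the 18 synthesis genes the median deviation from the group mean was -0.11 on the log2 scale in replicate 2 of the sgRNA control and -0.18 in replicate 2 of sgRNA #2, while the medians of the other 4 libraries lay between 0.005 and 0.11. INSIG1 shows this pattern in single values. It reached 137, 104 and 149 CPM with the sgRNA control and 148, 94.6 and 157 CPM with sgRNA #2, so replicate 2 was the lowest library in both groups. The variation of the sterol genes between replicate numbers was thus larger than their median difference between the groups. The count of called members, the medians of the synthesis and fatty acid genes and the members called with the block are therefore also given without replicate 2 in either group.

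**Figure D1:**
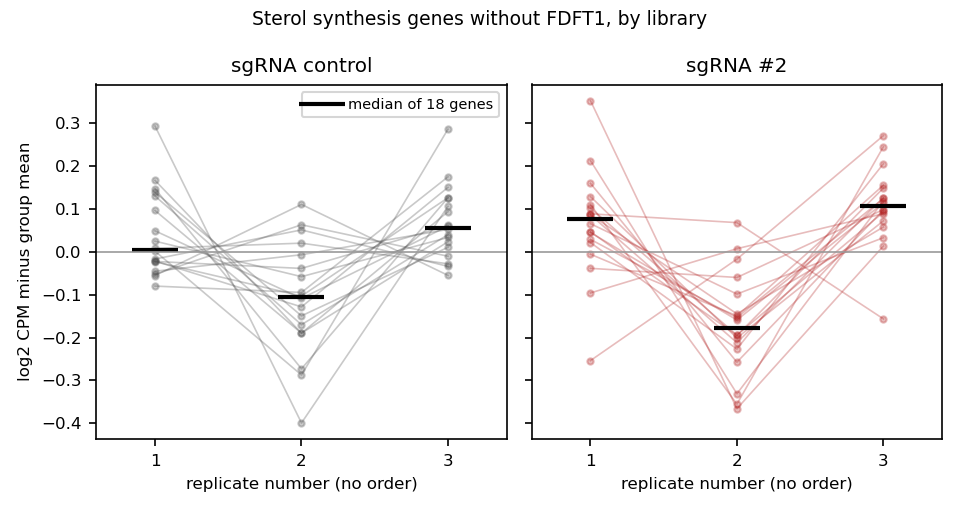
Deviation of log2 CPM from the group mean (y axis) in each library, by replicate number (x axis, which has no order), for the 18 sterol synthesis genes other than FDFT1; each thin line is a gene and each black bar the median of the 18. Replicate 2 has the lowest median in both groups, -0.11 with the sgRNA control and -0.18 with sgRNA #2.

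FDFT1 had 1306, 1316 and 1653 counts with the sgRNA control and 226, 232 and 237 with sgRNA #2. In CPM these were 208, 186 and 217 against 32.1, 34.8 and 39.5, so the groups lay far apart and varied little within themselves (204 ± 15.8 against 35.5 ± 3.71 CPM, SD, n = 3). The log2 fold change was -2.53 (SE 0.0870), which left 17.4% of the control level (95% confidence interval, 15.3 to 19.7%). Per replicate number the log2 ratio was -2.68, -2.40 and -2.45. Per kb of exon sequence, which allows levels of different genes to be compared, FDFT1 stood at 40.1 CPM per kb with the sgRNA control, rank 8 of the 39 members and close to SQLE and MSMO1 at 36.7 and 36.4. With sgRNA #2 it stood at 6.99 CPM per kb, rank 31, while SQLE and MSMO1 were at 37.5 and 37.8. For comparison, SFTPB, the gene aimed at, had 2683, 2877 and 3155 counts with the sgRNA control and 40, 42 and 49 with sgRNA #2 (log2 fold change -5.96, SE 0.101), so FDFT1 kept a larger share of its control level than SFTPB did.

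**Figure D2:**
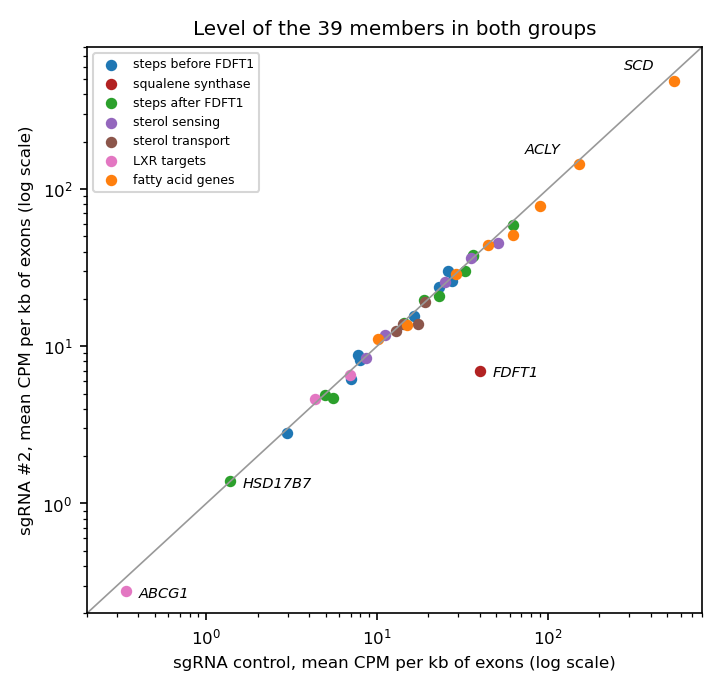
Mean level of the 39 members per kb of exons with the sgRNA control (x axis) and with sgRNA #2 (y axis), both in CPM per kb on log scales, 3 libraries per group, coloured by role; the line marks equal levels. FDFT1 lies below the line (40.1 against 6.99), and the other members lie on or near it from ABCG1 (0.339) to SCD (548.3).

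Around this low FDFT1 level, the other 38 members differed little. None was higher past the adjusted p threshold of 0.05, against 0.464% of all tested genes, and 1 was lower, NPC1, against 2.22%. None passed the study's pair of cut-offs (a log2 fold change of at least 1 in size and an adjusted p under 0.05), which 0.689% of all tested genes passed as lower and 0.0299% as higher. At an unadjusted p under 0.05 there were 4 members, NPC1, FADS2, FADS1 and SREBF1, each with a negative log2 fold change, against 11.1% of all tested genes in either direction, and DESeq2 put 2 past the adjusted threshold, NPC1 and FADS2, both lower, against 1.86% of all tested genes. The median log2 fold change of the 38 was -0.04, with 12 above 0 and 26 below, against a median of 0.003 over all tested genes. All 3 libraries of sgRNA #2 lay above all 3 of the control for 1 member (FDPS) and below for 4 (TM7SF2, NPC1, ACLY and FADS2), where 6.77% and 8.83% of all tested genes did so. With the replicate block 1 member was higher, HMGCS1, and 5 were lower, SREBF1, NPC1, SCD, FADS1 and FADS2, where the background was 3.97% higher and 6.06% lower. That fit differs both in the pairing and in its prior degrees of freedom, which were infinite, so that its p-values take the spread from the trend over all genes. Without replicate 2 in either group no member other than FDFT1 passed.

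**Figure D3:**
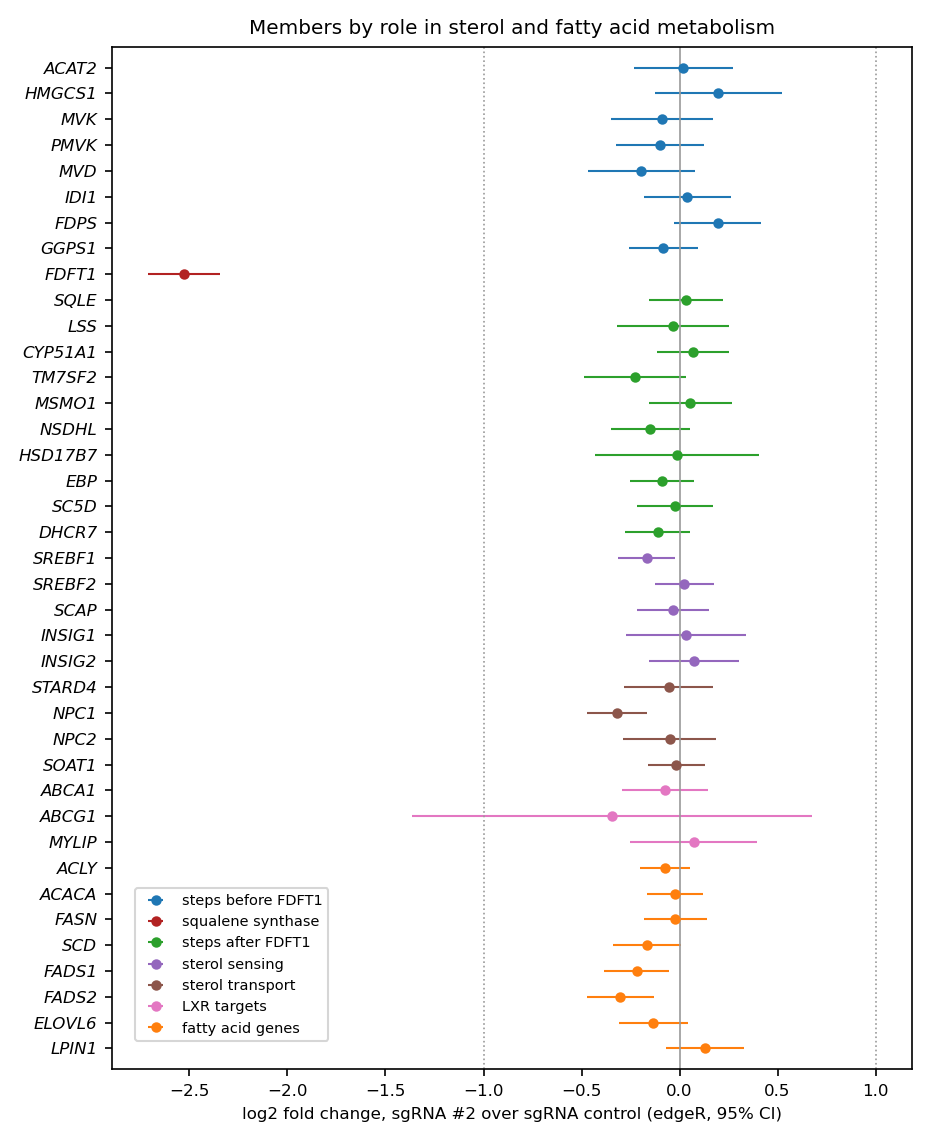
Log2 fold change of sgRNA #2 over the sgRNA control (x axis, edgeR, points with 95% confidence intervals, 3 libraries per group) for the 39 members in order of role (y axis); dotted lines mark a log2 fold change of 1 in either direction. FDFT1 sits at -2.53, and the other 38 members sit between -0.34 and 0.20.

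The 8 genes of the steps before FDFT1 lead to farnesyl pyrophosphate, which squalene synthase uses, except GGPS1, which draws on it for another branch. None passed the test. Their median log2 fold change was -0.03, with a range of -0.19 to 0.20, 4 above 0 and 4 below, and -0.0070 without replicate 2 in either group. Leaving out 1 library at a time moved this median from -0.08 (without sgRNA #2 replicate 3) to 0.06 (without sgRNA #2 replicate 2), so its sign was not settled. HMGCS1, which makes HMG-CoA for the mevalonate pathway and is a classical SREBP target, had the highest value of the 8. It reached 208, 128 and 183 CPM with the sgRNA control and 248, 150 and 196 CPM with sgRNA #2. The groups overlapped, with replicate 2 of each well under the others. Each sgRNA #2 library was above the control library of its own number, by 0.25, 0.23 and 0.10 on the log2 scale. FDPS, which did not pass with the block, was also higher in each pair, and the share of all tested genes that did so was not computed. Without the block the log2 fold change of HMGCS1 was 0.20 (SE 0.153, edgeR adjusted p = 0.724). With the replicate block it was 0.19 with an edgeR adjusted p of 0.00126. The blocked fit differs in the pairing and in its infinite prior degrees of freedom, and the unpaired fit without a count filter, in which these were infinite too, gave HMGCS1 an SE of 0.0723 and an adjusted p of 0.143. Leaving out 1 library at a time gave 0.01 (without sgRNA #2 replicate 1) to 0.36 (without sgRNA #2 replicate 2), with 0.02 without control replicate 2, and leaving out replicate 2 in both groups gave 0.19 (edgeR adjusted p = 0.680). HMGCS1 lies at chr5:43287470-43313512 on the minus strand (GENCODE 44 on GRCh38). The upper end of its 95% confidence interval was 143.5% of the control level.

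FDPS, which makes farnesyl pyrophosphate, the substrate of squalene synthase, was the member whose groups did not overlap upward. Its CPM were 29.1, 27.5 and 29.3 with the sgRNA control and 32.6, 29.4 and 36.5 with sgRNA #2, where the lowest sgRNA #2 library lay just above the highest control library. The log2 fold change was 0.19 (SE 0.105, edgeR adjusted p = 0.536), and with the replicate block the adjusted p was 0.185. With 1 library left out it lay between 0.11 (without sgRNA #2 replicate 3) and 0.27 (without sgRNA #2 replicate 2). The genome holds 8 pseudogenes named after FDPS, which may share its reads.

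IDI1, which interconverts the isoprenoid building blocks, had 109, 81.1 and 107 CPM with the sgRNA control and 107, 87.3 and 110 CPM with sgRNA #2, a log2 fold change of 0.04 (SE 0.105). GGPS1 draws farnesyl pyrophosphate into the branch that serves protein prenylation. It had 60.2, 67.6 and 60.2 CPM against 55.3, 59.5 and 63.0 CPM, a log2 fold change of -0.08 (SE 0.0827), and the groups overlapped. ACAT2, the first step (0.02), and the kinases and decarboxylase of the mevalonate arm, MVK (-0.09), PMVK (-0.10) and MVD (-0.19), had adjusted p-values of 0.663 to 0.978.

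The 10 genes of the steps after FDFT1, which turn squalene into cholesterol, did not pass the test either, with or without the block. Their median log2 fold change was -0.03 and their range -0.23 to 0.07, with 3 above 0 and 7 below, and the median was 0.0096 without replicate 2 in either group and between -0.14 (without sgRNA #2 replicate 3) and 0.034 (without sgRNA #2 replicate 2) with 1 library left out. SQLE, squalene epoxidase, uses the product of FDFT1. It had 172, 140 and 162 CPM with the sgRNA control and 176, 140 and 169 CPM with sgRNA #2, so the libraries of each number were nearly level, and its log2 fold change was 0.03 (SE 0.0891, edgeR adjusted p = 0.941). LSS had 102, 83.6 and 125 CPM against 108, 78.0 and 118 CPM, again with replicate 2 lowest in both groups. CYP51A1, the lanosterol demethylase, had the highest value of the 10 at 0.07 (SE 0.0876), and MSMO1, a methylsterol oxidase, stood at 0.05 (SE 0.100). TM7SF2, a sterol reductase, had the lowest value. It had 18.6, 19.6 and 18.4 CPM with the sgRNA control and 17.1, 16.8 and 14.3 CPM with sgRNA #2, which did not overlap, for a log2 fold change of -0.23 (SE 0.124, edgeR adjusted p = 0.541). The other 5 genes, NSDHL (-0.15), DHCR7 (-0.11), EBP (-0.09), SC5D (-0.02) and HSD17B7 (-0.01), had adjusted p-values of 0.636 to 0.992. HSD17B7 was the least deeply counted gene of synthesis, with 38 to 50 counts per library, and has 2 named pseudogenes.

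The precision of these 18 genes was set beside their values. Their largest SE was 0.197 (HSD17B7) and their median SE 0.105, and no 95% confidence interval reached a change of 1.5-fold in either direction. The SE did not simply follow the counts, since HMGCS1, with 907 to 1743 counts, had a larger SE (0.153) than TM7SF2 with 86 to 140 (0.124). The highest upper ends were 143.5% of the control level for HMGCS1, 133% for FDPS and 132% for HSD17B7. Proteins, sterols and squalene were not measured.

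**Figure D4:**
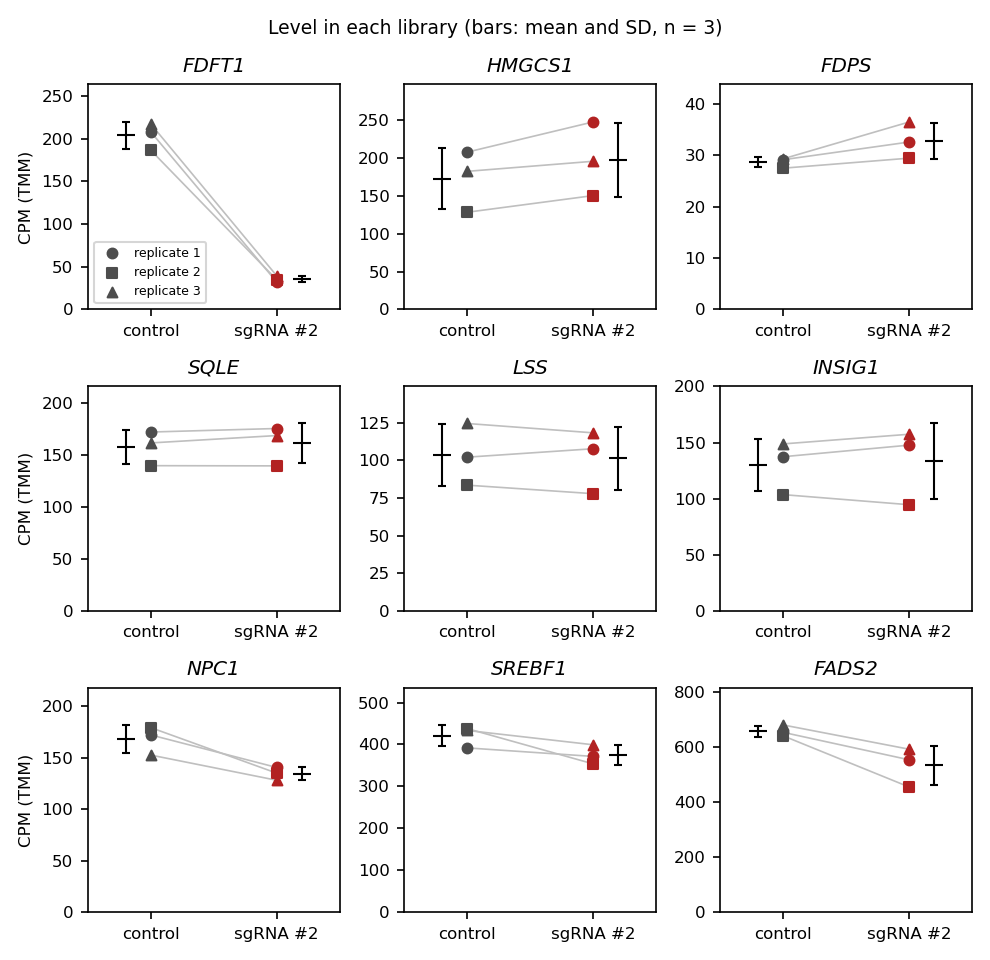
TMM-scaled CPM (y axes, from 0) of 9 members in each library of the sgRNA control (grey) and sgRNA #2 (red), with a grey line joining libraries of the same replicate number and black bars for the mean and SD of 3 libraries. FDFT1 drops from 204 to 35.5 CPM. HMGCS1 and FDPS are above their controls of the same number in all 3 pairs, and NPC1, SREBF1 and FADS2 are below theirs in all 3. SQLE, LSS and INSIG1 stay close within each pair.

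Among the 5 genes of sterol sensing none passed the test. SREBF2, the SREBP gene most tied to sterol synthesis, had 188, 203 and 215 CPM with the sgRNA control and 203, 194 and 220 CPM with sgRNA #2, a log2 fold change of 0.02 (SE 0.0706). INSIG1, which holds SCAP back and is itself an SREBP target, stood at 0.03 (SE 0.146, edgeR adjusted p = 0.964). SCAP stood at -0.03 and INSIG2 at 0.07, with adjusted p-values of 0.936 and 0.891. SREBF1, whose products drive mostly fatty acid genes, had 392, 438 and 434 CPM with the sgRNA control and 372, 354 and 399 CPM with sgRNA #2. The groups overlapped at 1 library of each, and the log2 fold change was -0.17 (SE 0.0683, edgeR adjusted p = 0.317). With the replicate block SREBF1 passed (edgeR adjusted p = 0.00203). It was lower in all 3 pairs, as were members that did not pass with the block, among them MVK, PMVK, EBP and DHCR7. Without replicate 2 in either group the log2 fold change of SREBF1 was -0.10 (edgeR adjusted p = 0.845).

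Of the 4 genes of sterol transport, NPC1, which exports cholesterol from lysosomes, was lower with sgRNA #2. It had 172, 179 and 152 CPM with the sgRNA control and 140, 135 and 128 CPM with sgRNA #2, and the groups did not overlap. The log2 fold change was -0.32 (SE 0.0726, edgeR adjusted p = 0.0204), which is 80.3% of the control level (95% confidence interval, 72.2 to 89.2%). DESeq2 gave an adjusted p of 0.0167 and the replicate block 1.26e-08. The call did not hold without control replicate 1, control replicate 2, sgRNA #2 replicate 2 or sgRNA #2 replicate 3 (edgeR adjusted p of 0.0681, 0.105, 0.0713 and 0.0973), with a log2 fold change of -0.38 to -0.27 over the 6 fits that left out 1 library, nor without replicate 2 in either group (-0.27, adjusted p = 0.234). NPC1 (chr18:23506184-23586506, minus strand, GENCODE 44 on GRCh38) overlaps 1 gene on its own strand and 1 on the other, and the strand setting of the counting is not given in the sources used here. NPC2, its lysosomal partner, stood at -0.05 (SE 0.113). STARD4, a sterol carrier and SREBP target, had 76.8, 62.4 and 81.7 CPM against 72.4, 60.1 and 80.3 CPM, a log2 fold change of -0.06 (SE 0.107). SOAT1, which esterifies cholesterol, stood at -0.02 (SE 0.0684).

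The 3 LXR targets respond to oxysterols. ABCA1, the cholesterol exporter, had 70.1, 87.9 and 77.2 CPM with the sgRNA control and 67.1, 88.6 and 67.6 CPM with sgRNA #2, a log2 fold change of -0.07 (SE 0.105), and its highest library was replicate 2 in both groups. MYLIP, a ubiquitin ligase for lipoprotein receptors, had 11.3, 13.5 and 15.2 CPM against 12.1, 15.3 and 15.0 CPM, a log2 fold change of 0.07 (SE 0.153). ABCG1 had only 3 to 22 counts per library, and its interval of 38.9 to 159.5% of the control level leaves its direction undetermined at this depth. None of the 3 passed the test.

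The 8 fatty acid genes act in making and modifying acyl chains, except LPIN1, a phosphatidate phosphatase. Their median log2 fold change was -0.10 (-0.09 without replicate 2 in either group), with 7 of 8 below 0, and none passed the test without the block. With 1 library left out the median lay between -0.16 (without sgRNA #2 replicate 3) and -0.07 (without sgRNA #2 replicate 2). FADS2, the delta-6 desaturase, had 655, 642 and 682 CPM with the sgRNA control and 555, 456 and 594 CPM with sgRNA #2, and its groups did not overlap. The log2 fold change was -0.30 (SE 0.0812, edgeR adjusted p = 0.0576), with 0.0291 from DESeq2 and 2.05e-11 with the replicate block. FADS2 stood at -0.20 without sgRNA #2 replicate 2, at -0.38 without sgRNA #2 replicate 3 (edgeR adjusted p = 0.0134) and at -0.22 without replicate 2 in either group (0.363). FADS1, the delta-5 desaturase, had 927, 852 and 993 CPM against 809, 708 and 865 CPM. Its log2 fold change was -0.22 (SE 0.0785, edgeR adjusted p = 0.224, or 5.72e-06 with the replicate block). FADS1 lies on the minus strand inside the span of FADS2 on the plus strand. Because the strand setting of the counting is not given, FADS1 and FADS2 may share reads. Without sgRNA #2 replicate 2 FADS1 stood at -0.14, and without replicate 2 in either group at -0.20 (edgeR adjusted p = 0.509). SCD, which makes oleate and was the most abundant member per kb in both groups, had 2820, 2772 and 3035 CPM with the sgRNA control and 2539, 2262 and 2893 CPM with sgRNA #2. The SCD groups overlapped, and the log2 fold change was -0.17 (SE 0.0818, edgeR adjusted p = 0.481, or 0.00162 with the replicate block). SCD stood at -0.08 without sgRNA #2 replicate 2, at -0.26 without sgRNA #2 replicate 3 and at -0.11 without replicate 2 in either group (edgeR adjusted p = 0.866). Each of these 3 desaturases was lower in all 3 pairs, and so were ACLY and ELOVL6, which did not pass with the block. The share of all tested genes lower in all 3 pairs was not computed. FASN, fatty acid synthase, had 426, 426 and 397 CPM against 459, 370 and 401 CPM, a log2 fold change of -0.02 (SE 0.0754). ACLY, which makes cytosolic acetyl-CoA, did not overlap between groups (780 to 800 against 742 to 763 CPM), with a log2 fold change of -0.07 (SE 0.0598, edgeR adjusted p = 0.743). ACACA (-0.02), ELOVL6 (-0.13) and LPIN1, a phosphatidate phosphatase (0.13), had adjusted p-values of 0.620 to 0.941.

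Of 75 further genes of these pathways (isoprenoid branches, SREBP processing, sterol transport and LXR partners, fatty acid synthesis), 71 were tested. None was higher and 2 (2.82%) were lower past the adjusted p threshold, against 0.464% and 2.22% of all tested genes, and the median log2 fold change was -0.0005. With the replicate block 2 were higher (SOAT2 and NCEH1) and 5 were lower (RXRA, AGPAT2, SCARB1, ELOVL5 and CYB5R3), where that fit called 3.97% and 6.06% of all tested genes. RXRA, the partner receptor of LXR and of several other nuclear receptors, had 777, 922 and 953 counts with the sgRNA control and 604, 534 and 515 with sgRNA #2 (log2 fold change -0.59, SE 0.0671, edgeR adjusted p = 2.25e-05), and it passed in all 6 fits that left out 1 library. AGPAT2, an acyltransferase of phospholipid and triglyceride synthesis, had 1015, 1186 and 1432 counts against 948, 873 and 851 (log2 fold change -0.35, SE 0.0711, edgeR adjusted p = 0.00986), and it passed in 3 of those 6 fits. The 11 genes of SREBP processing, among them the proteases MBTPS1 and MBTPS2 that cleave SREBPs, lay within -0.07 and 0.13, and none passed with or without the block. Of the 21 genes of the isoprenoid branches and remaining sterol enzymes, which include the prenyltransferase subunits FNTA and FNTB and the dolichol and ubiquinone enzymes DHDDS and PDSS2, none passed without the block and 1 was lower with it, CYB5R3 (log2 fold change -0.18, edgeR adjusted p = 0.00595). Without the block CYB5R3 stood at -0.19, and between -0.24 and -0.12 with 1 library left out.

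The genes next to FDFT1 were set beside it. Of 20 listed genes within 500 kb, 5 were tested. NEIL2, a DNA glycosylase 8.2 kb away, had 326, 393 and 372 counts with the sgRNA control and 49, 36 and 51 with sgRNA #2, without overlap (log2 fold change -2.91, SE 0.135, edgeR adjusted p = 9.81e-11). CTSB, the protease cathepsin B 3.1 kb away on the other side, stood at -0.09 (SE 0.0739, edgeR adjusted p = 0.757), and GATA4 at 35.6 kb and MTMR9 at 467.4 kb stood at 0.13 and 0.16 with adjusted p-values of 0.866 and 0.580. FAM167A, at 319.7 kb, had 287, 327 and 300 counts against 216, 236 and 197 (log2 fold change -0.41, SE 0.0991, edgeR adjusted p = 0.0318), with 0.0640 from DESeq2 and a call in 2 of the 6 fits that left out 1 library. Of these 5, NEIL2 was thus the gene with a change of the size of that of FDFT1.

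The promoters of the members, 250 bases before to 50 after the start (RefSeq, GRCh38.p14), were given for 34 of the 39 and searched on both strands. The sterol regulatory element TCACNCCAC, a binding motif of SREBPs, was in 1 of the 34, against 313 of 27305 promoters. The match is in SREBF2, printed with the motif in capitals because it is the single exact match, at chr22:41832962-41832990 on the plus strand, with its first base at -133 from the start.
SREBF2 promoter: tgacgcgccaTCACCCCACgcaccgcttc
With 1 mismatch allowed outside the N, 13 of the 34 held it (38.2%, against 24.2% of all). INSIG1, MSMO1, IDI1, FDPS and SCD were among them, as were NPC2 and the LXR target ABCA1. HMGCS1, STARD4, LSS, DHCR7 and CYP51A1 did not hold it. The box CCAAT, read by NF-Y, was in 20 (58.8%, against 35.7% of all), and the GC box GGGCGG, read by SP1, was in 31 (91.2%, against 44.6%). All members passed the count filter, whereas the promoters compared with include those of genes not tested here, so the shares are not matched for expression. These letters do not depend on the levels measured here, and SREBF2, with the exact match, had a log2 fold change of 0.02.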

How the data were processed

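RNA-seq of 6 libraries (3 per group, with groups and replicate numbers from the sample labels) was analysed from the raw read counts per gene symbol that the authors deposited, made with HTSeq. The submitters' processing notes also name Trim Galore, FastQC, Bowtie2 2.3.3.1, SAMtools, Picard and hg38. The annotation and strand setting are not given in the sources used here. Counts outside genes (19.7 to 21.1%) and ambiguous counts (2.61 to 2.75%) stayed out of all sums.

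The 13356 genes that reached 10 counts in 3 or more libraries were tested with edgeR 4.0.16 in R 4.3.3 (TMM, quasi-likelihood test, Benjamini-Hochberg adjustment over all genes). DESeq2 1.42.0, the tool the study names, was an alternative. A count of 3, the floor of detection, was 0.394 to 0.499 CPM and covers counting error only. Libraries of a group differed by more than sampling noise (chi-square per degree of freedom 2.61 to 3.43), as separately prepared libraries do whether or not the cultures were separate. Each was counted as 1 replicate because the study calls them biologically independent. The replicate numbers in the labels were taken to pair the libraries because all 3 same-numbered pairs correlated above 0.1 (0.269 to 0.291). Each gene was centred on its group mean, so positive values for same-numbered libraries push those for differently numbered libraries below 0. Their range of -0.180 to -0.100 is therefore no separate support for the pairing. The other alternatives were RLE size factors, total counts only, other count filters, the replicate block and leaving out each library. A limma 3.58.1 voom fit with the block and a fit without replicate 2 were chosen after seeing the data.

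The members, gene lists and tests were chosen with earlier results of these data known. Named genes are all members by role, with values per library for FDFT1, for members past the adjusted threshold and for a set list of indicator genes, then pathway genes past the threshold and all tested genes within 500 kb of FDFT1. FADS1, FADS2, TM7SF2, ACLY and CYB5R3 were given values after these were seen. Symbols were matched to GENCODE 44 (24535 of 26485, 1374 of them through an older symbol). Of the 39 members, 27 overlap another annotated gene and 5 have named pseudogenes, so their counts may be shared. Some genes of the pathway are not reported here.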

Additional observations from a re-analysis of the deposited data

How the results depend on the processing

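RLE size factors left the counts of all tested genes and of members past the cut-offs within 1.5 times of their values. Of all tested genes, 96 passed both cut-offs, with 63 at 10 counts in every library, 56 without replicate 2 in either group, 65 to 94 when 1 library was left out, 127 without a count filter, 122 with the replicate block and 122 with limma voom and the block. The adjusted p alone was passed by 359 genes, 583 without a count filter, 1339 with the replicate block, 1340 with limma voom and the block, 168 without replicate 2 and 224 to 327 with 1 library left out. In the blocked fits and without a filter, the prior degrees of freedom were infinite. Of the 38 members other than FDFT1, 1 passed the adjusted p alone (NPC1), against 2 with total counts only (NPC1 and FADS2), 3 without a filter (NPC1, FADS1 and FADS2), 2 with DESeq2 (NPC1 and FADS2), 6 with the replicate block, 6 with limma voom and the block (the same 6 genes), 0 without replicate 2 and 0 to 1 with 1 library left out. The block changed no other call among the members. The median log2 fold change of the steps after FDFT1 was -0.14 without sgRNA #2 replicate 3 and -0.14 to 0.034 over all fits that left out 1 library. The sign of 21 members turned under at least 1 alternative, and that of 18, FDFT1 among them, under none. Of the 21, ABCG1 had the log2 fold change largest in size (-0.345), followed by MVK (-0.090). The cause of these differences was not tested, beyond the fewer libraries or genes that some fits hold. With 3 libraries per group, an SE near 0.1 limits what the synthesis genes could show.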

Other observations

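Cholesterol ester and lipoprotein genes outside the members held a few values of their own, chosen after they were seen. SOAT2, which esterifies cholesterol, had 46, 50 and 50 counts with the sgRNA control and 72, 60 and 74 with sgRNA #2, and its groups did not overlap. Its log2 fold change was 0.59 (SE 0.176, edgeR adjusted p = 0.106, or 0.00652 with the replicate block). It was the highest value among the 71 further pathway genes tested. NCEH1, which hydrolyses cholesterol esters, stood at 0.17 and passed with the replicate block alone (edgeR adjusted p = 0.0177). SCARB1, a lipoprotein receptor, stood at -0.16 and ELOVL5, an elongase, at -0.13, and both passed with the block alone (edgeR adjusted p of 0.00845 and 0.0324). Without the block and with 1 library left out, ELOVL5 lay between -0.21 and -0.07 and NCEH1 between 0.11 and 0.27. Over the 71 genes the block called 2 higher and 5 lower, where it called 3.97% of all tested genes higher and 6.06% lower.

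LRP8, a lipoprotein receptor, had 1066, 945 and 1443 counts with the sgRNA control and 1379, 941 and 1187 with sgRNA #2, with replicate 2 lowest in CPM in both groups as for most synthesis genes. Its log2 fold change was 0.12 (SE 0.120, edgeR adjusted p = 0.818). ALDH3A1, a detoxifying enzyme of A549 cells, stood at -0.33 (SE 0.0917, edgeR adjusted p = 0.0658, or 6.44e-12 with the replicate block and 0.0401 from DESeq2), and its groups did not overlap. With 1 library left out it lay between -0.44 and -0.22 without the block.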
